A study of Mus musculus with 2 samples.

Results

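Among CD8+ T cells sorted from B16 melanoma tumors, 371 of 5320 deposited cells carried a high share of mitochondrial RNA. The cells were chosen by this share, a measured value: a cell was counted when transcripts of the 13 genes with the prefix mt- made up 7.5% or more of its unique molecular identifiers (UMIs, each standing for 1 captured RNA molecule). These high-mt cells were 158 of 2697 cells (5.86%, exact 95% interval 5.002 to 6.81) in the library from lean mice on normal chow (NC). They were 213 of 2623 cells (8.12%, interval 7.10 to 9.23) in the library from obese mice on western diet (WD). The other 4949 cells, 2539 on NC and 2410 on WD, are called the remaining cells.

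Both libraries came from male C57Bl/6J mice aged 16 weeks that carried transplanted tumors of the B16 F0 melanoma line. The CD8+ tumor-infiltrating lymphocytes (TIL) were enriched with magnetic beads, sorted by flow cytometry on CD8 and sequenced by droplet-based 3′ scRNAseq. The groups differ in diet and in the obesity that the diet brings, and share strain, sex, age and tumor line. Each diet is 1 library, the number of mice behind each library is not given in the labels or methods, and diet cannot be told apart from any other difference between the libraries. No test between groups was therefore possible. All intervals are 95% intervals that cover counting error only, and neither mice nor cells serve as replicates. The libraries shared 4 cell barcodes, 1 of which belonged to a high-mt cell on WD and 0 to a high-mt cell on NC. No doublet caller was run.

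The mammalian mitochondrial genome is a small circle inside the mitochondrion that encodes ribosomal and transfer RNAs of the organelle and a few core subunits of the respiratory chain and ATP synthase. All other subunits are encoded in the nucleus, translated in the cytosol and imported. Mitochondrial transcripts sit behind the organelle membranes, and their share of the RNA of a cell is widely used in single-cell work as a measure of cell quality, with an upper limit set for each dataset. The share also differs between cell types and metabolic states.

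The high-mt cells held far fewer nuclear-encoded transcripts than the remaining cells and somewhat more mitochondrial ones. A high-mt cell held a median of 234 mitochondrial UMIs on NC (lowest 47, highest 1045), against 189 in the remaining cells. On WD the medians were 385 (lowest 51, highest 1345) and 269. Nuclear-encoded UMIs per cell had medians of 1322.5 in high-mt cells and 7938 in remaining cells on NC, and of 2126 and 9254 on WD. Genes detected per cell followed, with medians of 672 and 2140 on NC and of 1044 and 2388 on WD. The high-mt cells together held 291455 nuclear UMIs on NC and 508432 on WD, and the remaining cells 32888117 and 37284739, so values for the high-mt cells rest on far fewer molecules.

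**Figure D1:**
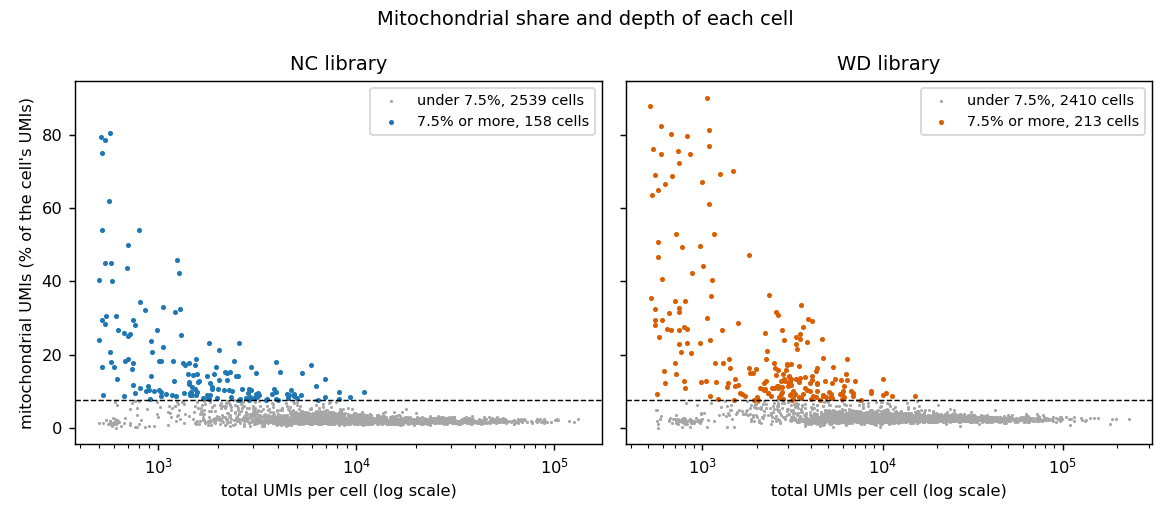
Each point is 1 cell of the NC library (left) or the WD library (right), with total UMIs on a log scale on the x axis and mitochondrial UMIs as a percent of all UMIs of the cell on the y axis. The dashed line is the 7.5% limit, and the coloured points above it are the 158 and 213 high-mt cells, which lie at the low end of depth with totals of up to 10878 UMIs on NC and 15160 on WD.

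Cells of low depth supplied most of the high-mt cells. Of cells with 500 to 1000 UMIs, 49 of 103 on NC (47.6%, interval 37.6 to 57.7) and 51 of 119 on WD (42.9%, interval 33.8 to 52.3) were at or above the limit. Between 1000 and 2000 UMIs these were 52 of 124 (41.9%, interval 33.1 to 51.1) and 37 of 81 (45.7%, interval 34.6 to 57.1). The libraries parted between 2000 and 5000 UMIs, where 45 of 482 NC cells (9.34%, interval 6.89 to 12.3) and 95 of 393 WD cells (24.2%, interval 20.02 to 28.7) were high-mt cells. From 5000 to 10000 UMIs the shares were 1.12% on NC and 2.82% on WD, and from 10000 to 20000 UMIs they were 0.181% and 0.825%. None of the 373 NC cells and 416 WD cells with 20000 to 50000 UMIs passed the limit, counts of 0 that allow shares of up to 0.804% and 0.721%. The 83 NC and 121 WD cells with 50000 or more UMIs gave 0 as well, which allows up to 3.61% and 2.48%. The mitochondrial share of the remaining cells also differed between libraries, with medians of 2.09% on NC and 2.60% on WD, so the same limit lay nearer to the bulk of the WD cells.

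The share that chose the cells had a median of 12.7% on NC (quartiles 9.24 and 20.3, highest 80.6%) and of 13.9% on WD (quartiles 9.98 and 26.9, highest 90.3%). The 11 NC cells just inside it, between 7.5% and 8%, had a median depth of 3504 UMIs and 1438 genes, and the 17 just outside, between 7% and 7.5%, had 2246 UMIs and 991 genes. On WD the 11 cells just inside had 3129 UMIs and 1164 genes, and the 16 just outside 5386.5 UMIs and 2188.5 genes. Ribosomal protein transcripts made up a median of 12.3% of nuclear UMIs just inside and 11.3% just outside on NC, and of 8.47% and 11.3% on WD, all well under the medians of 29.7% and 29.8% in all remaining cells. The nuclear RNA list described further on took a median of 13.4% just inside and 18.0% just outside on NC, and of 19.7% and 9.83% on WD, in opposite orders in the libraries.

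The label CD8 T cell was checked against marker genes. At least 1 UMI of 15 T cell genes (receptor chains, the CD3 complex, CD8 and proximal signalling) was found in 143 of 158 high-mt cells on NC (90.5%, interval 84.8 to 94.6) and 203 of 213 on WD (95.3%, interval 91.5 to 97.7), against 99.9% of remaining cells in each library. With each cell thinned to 500 nuclear UMIs, which left out 25 NC and 38 WD high-mt cells of lower depth, the shares were 82.0% (interval 74.4 to 88.1) and 87.4% (interval 81.6 to 92.0), and 97.0% and 97.2% in remaining cells. The 15 NC and 10 WD cells with none of these UMIs were shallow, with median nuclear depths of 391 and 208 UMIs. A UMI of *Cd8a* or *Cd8b1* was present in 98 NC cells (62.0%) and 147 WD cells (69.0%), against 96.2% and 96.8% of the remaining cells. A background share from free RNA, in cells known to lack these transcripts, was not measured here.

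Markers of other cell types were at 0 for some types and low for most, and dendritic and MHC class II genes were the most abundant of them. Of the 4 NK and gamma-delta T cell genes (*Klrb1c*, *Ncr1*, *Tcrg-C1*, *Trdc*), the 5 red cell genes and the 2 platelet genes, high-mt cells held 0 UMIs in both libraries, which allows up to 10.3 counts per 1000000 nuclear UMIs (CPM) on NC and 5.9 on WD. In remaining cells the NK and gamma-delta genes were at 5.23 and 5.10 CPM and the platelet genes at 0.182 and 1.05. These lie under the limits, so the counts of 0 show no difference for these 2 types. The red cell genes, led by *Hbb-bs*, summed to 247 CPM in remaining WD cells, where 31 of 2410 cells carried them, and to 0 in remaining NC cells. The 6 melanoma genes gave 1 UMI on NC, of *Pmel*, and 10 on WD, led by *Tyrp1* with 4, or 3.43 and 19.7 CPM against 1.46 and 1.61 in remaining cells. The 11 myeloid genes summed to 34.3 and 51.1 CPM, against 27.3 and 29.96, with 6 of the 11 at 0 on NC and 4 on WD and with *Lyz2* and *C1qb* the most abundant. The 6 B cell genes summed to 37.7 and 78.7 CPM, against 45.6 and 99.7, mostly *Ighm*, with *Cd79a* and *Ms4a1* at 0 in both. The 4 CD4 T cell genes gave 20.6 and 19.7 CPM, against 10.2 and 8.96, led by *Zbtb7b*, with *Foxp3* at 0. The 4 stroma and endothelium genes gave 20.6 and 25.6 CPM, all from *Pecam1*, against 11.3 and 15.4. The 7 dendritic and MHC class II genes stood apart on NC, at 333 CPM against 137, with *Cd74* at 223 CPM against 89.8 (20 cells, 32.3% of the UMIs in 1 of them). On WD they summed to 205 CPM against 219, *Cd74* was at 134 CPM against 129, and *Flt3* and *Xcr1* were at 0 in both libraries. The part of such cells in the results that follow was not tested.

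The make-up of the mitochondrial RNA was compared next, as the share of each of the 13 genes among all mitochondrial UMIs, a measure that the 7.5% limit did not use. The 13 genes encode 7 subunits of complex I (*mt-Nd1* to *mt-Nd6* and *mt-Nd4l*), 1 of complex III (*mt-Cytb*), 3 of complex IV (*mt-Co1* to *mt-Co3*) and 2 of ATP synthase (*mt-Atp6*, *mt-Atp8*). Most of the pool was made up alike. *mt-Atp6* gave 22.3% of mitochondrial UMIs in NC high-mt cells and 21.9% in remaining cells, and 25.8% and 25.1% on WD. *mt-Co2* followed with 16.9% and 18.4% on NC and 17.2% and 18.3% on WD. The log2 ratio of shares, high-mt over remaining cells, was 0.1 or more in both libraries for 5 of 13 genes and -0.1 or less in both for 2, and 6 met neither. These calls changed when each cell counted alike: *mt-Atp8*, *mt-Nd4* and *mt-Nd5* no longer met the threshold (mean log2 ratios of the libraries of 0.09, 0.06 and 0.02), and *mt-Atp6* did (0.16), beside *mt-Nd4l* and *mt-Nd6* (0.37 and 0.65). The genes with smaller shares were then 3 in place of 2, *mt-Co1* (-0.19) besides *mt-Nd3* and *mt-Nd1*.

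Of the 5 genes with greater shares, 4 encode subunits of complex I, as do both genes with smaller shares. *mt-Nd6*, the only protein gene on the other strand, gave 0.155% of mitochondrial UMIs (69 UMIs) in NC high-mt cells and 0.0951% in remaining cells, a log2 ratio of 0.70 (interval 0.32 to 1.06). On WD it gave 0.179% (169 UMIs) and 0.0803%, a log2 ratio of 1.16 (interval 0.91 to 1.40). *mt-Nd4l* had shares of 2.43% and 1.83% on NC and of 1.58% and 1.09% on WD, log2 ratios of 0.41 and 0.53. *mt-Atp8* had shares of 3.28% and 2.51% on NC and of 2.11% and 1.48% on WD, log2 ratios of 0.38 and 0.51. The log2 ratios of *mt-Nd5* were 0.38 in both libraries and those of *mt-Nd4* were 0.22 and 0.18. The 2 genes with smaller shares were *mt-Nd3*, at -0.41 and -0.34, and *mt-Nd1*, at -0.17 and -0.24. The order of the 13 genes was close in the libraries (Pearson r of 0.97 across genes, which share the same 2 cell groups and are not independent).

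**Figure D2:**
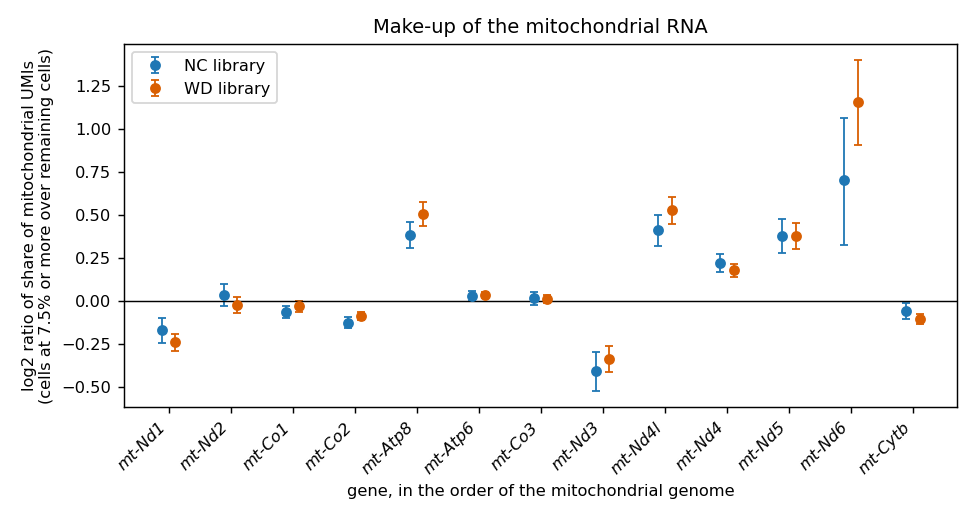
The x axis lists the 13 mitochondrial genes in genome order and the y axis gives the log2 ratio of the share of mitochondrial UMIs, high-mt cells over remaining cells, with points for the NC and WD libraries and bars for exact 95% counting intervals. *mt-Nd6*, *mt-Nd4l*, *mt-Atp8*, *mt-Nd5* and *mt-Nd4* lie above 0 in both libraries, and *mt-Nd3* and *mt-Nd1* below.

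Every one of those 5 genes overlaps a neighbour on the compact mitochondrial genome, which bears on how far single genes can be read. Overlap was not particular to them. *mt-Atp6* and *mt-Co3* also overlap neighbours and met neither threshold, with log2 ratios of 0.03 and 0.04 and of 0.02 and 0.01. The 3′ ends of *mt-Atp8*, *mt-Nd4l* and *mt-Nd5* are given as transcript sequence from GENCODE M21 (GRCm38), 5′ to 3′ on the plus strand. Reads of 3′ scRNAseq from these ends can cover bases of both genes, which share a strand for *mt-Atp8* and *mt-Nd4l* but not for *mt-Nd5*. Capitals mark the bases that also belong to the neighbour. For *mt-Atp8* (chrM:7907-7969) the 43 bases in capitals are the start of *mt-Atp6*, for *mt-Nd4l* (chrM:10127-10173) the 7 bases are the start of *mt-Nd4*, and for *mt-Nd5* (chrM:13512-13565) the 14 bases are the end of *mt-Nd6* on the opposite strand.
mt-Atp8: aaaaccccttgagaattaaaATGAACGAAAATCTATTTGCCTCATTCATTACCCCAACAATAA
mt-Nd4l: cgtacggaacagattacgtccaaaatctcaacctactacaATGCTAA
mt-Nd5: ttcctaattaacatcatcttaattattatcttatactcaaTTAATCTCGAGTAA
The gene pairs in these overlaps did not all move alike. *mt-Atp6* had log2 ratios of 0.03 and 0.04 where *mt-Atp8* had 0.38 and 0.51, while *mt-Nd4l* and *mt-Nd4* were both at or above 0.18. With each cell counted alike the first contrast was gone, with means of the libraries of 0.16 for *mt-Atp6* and 0.09 for *mt-Atp8* (SD between libraries 0.013 and 0.15). How the reads in the overlaps were assigned was not tested. Between diets, *mt-Atp8* and *mt-Nd4l* had smaller shares on WD than on NC both in high-mt cells (log2 ratios of -0.64 and -0.63) and in remaining cells (-0.76 and -0.74), so this gap was not particular to the high-mt cells.

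The nuclear-encoded RNA of the high-mt cells differed widely from that of the remaining cells, in the same way in both libraries. To keep the selecting share out of the comparison, each gene was scaled to CPM of nuclear UMIs only. Of 5916 genes compared, 1673 (28.3%) had a log2 ratio of 1 or more in both libraries and 767 (13%) one of -1 or less in both. The filter on low values, a mean of 20 CPM over the 4 groups, had a part in these counts: 670 of the 1673 were under 20 CPM in the remaining cells of both libraries and entered only through the high-mt cells, and 124 of the 767 entered only through the remaining cells. These shares are the background for the lists that follow. The median ratio of all genes was 0.51 on NC and 0.52 on WD. The ratios of the 2 libraries had a Pearson r of 0.89 across 5907 genes, and 4 genes passed the threshold in opposite directions. The cells were far shallower than those they were set against, and what remained at equal depth is given after the lists.

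Non-coding and very long transcripts led the genes that were higher. *Gm26917*, *Gm42418* and *AY036118* are 3 non-coding annotations that lie within a few kilobases on chromosome 17 (GRCm38 chr17:39843013-39846341, chr17:39846958-39848788 and chr17:39847113-39848035), the last 2 on opposite strands of the same stretch, in a region known for its ribosomal RNA sequence. *Gm42418* alone was 16.0% of nuclear UMIs in NC high-mt cells and 1.58% in remaining cells, and 11.6% and 1.09% on WD, log2 ratios of 3.34 (interval 3.33 to 3.36) and 3.41 (interval 3.40 to 3.42). *Gm26917* was 1.90% and 0.0465% on NC and 3.31% and 0.0501% on WD, log2 ratios of 5.35 (interval 5.30 to 5.39) and 6.04 (interval 6.01 to 6.07), the highest of all named genes in both libraries. *Lars2*, the mitochondrial leucyl-tRNA synthetase, stood at 1.85% and 0.0937% on NC and at 0.993% and 0.0518% on WD (log2 ratios 4.30 and 4.26). Both were detected widely, with a UMI of *Gm26917* in 138 NC and 194 WD high-mt cells and of *Lars2* in 148 and 207.

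The other 7 of the 10 highest genes were scarce, and 6 of them, all but *Kmt2d*, were under 20 CPM in the remaining cells of both libraries, so that only their level in high-mt cells brought them into the comparison. *Ttn*, the giant muscle protein titin, was at 264 CPM (77 UMIs) against 7.45 on NC and at 189 CPM (96 UMIs) against 5.34 on WD, log2 ratios of 5.15 and 5.14. *Rmrp*, the RNA of the RNase MRP enzyme that trims ribosomal RNA, was at 192 against 12.5 CPM on NC and 458 against 11.6 on WD. *Ccnb1ip1* was at 182 against 15.1 CPM and 287 against 12.8, and the annotation places *Rpph1*, the RNA of RNase P, within the span of *Ccnb1ip1* on the same strand, so that their reads may not be told apart. *Sema6d*, *Dscam* and *Atp2b2*, best known from the nervous system, were at 144, 154 and 96.1 CPM on NC against 7.81, 13.2 and 9.46. On WD they were at 120.0, 157 and 120.0 CPM against 17.1, 16.6 and 12.7. *Kmt2d*, a histone H3 methyltransferase, completed the group with log2 ratios of 3.40 and 3.07. In no gene of this group did 1 cell give more than 17.9% of the UMIs.

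Short transcripts led the genes that were lower. *Txn1* (thioredoxin) was at 141 CPM in NC high-mt cells against 983 in remaining cells, and at 128 against 999 on WD, log2 ratios of -2.80 (interval -3.28 to -2.36) and -2.97 (interval -3.34 to -2.62). Among the 10 lowest, 4 were respiratory chain genes: *Cox6c* and *Cox8a* of complex IV, and *Ndufa4* and *Ndufb1-ps*, with log2 ratios between -2.37 and -2.86 on NC and between -2.43 and -2.85 on WD. *Nme2* (a nucleoside diphosphate kinase), *Gng5* (a G protein subunit), *Tomm7* (of the mitochondrial import pore), *Snrpg* (a splicing core protein) and *Sec61b* (of the endoplasmic reticulum channel) had log2 ratios from -2.31 to -2.90 on NC and from -2.67 to -2.96 on WD. *Nme2* stands here with a readthrough gene that overlaps it.

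Gene lists with a known role showed which groups moved together. Their medians are given minus the all-gene medians of 0.51 and 0.52. The list called nuclear RNA here holds *Malat1*, *Neat1* and *Kcnq1ot1*, which are retained in the nucleus, and the 3 RNAs of chromosome 17, which gave most of its UMIs and for which that was not measured. Of these, 6 of 6 were 1 or more higher in both libraries, with medians 2.07 above all genes on NC and 1.97 on WD. Besides the 3 RNAs of chromosome 17, *Malat1* was 3.69% against 1.25% of nuclear UMIs on NC and 2.98% against 1.22% on WD, and *Neat1*, the scaffold of paraspeckles, was at 429 against 62.9 CPM and 389 against 68.7. *Kcnq1ot1*, which is antisense to Kcnq1, was at 92.6 against 33.7 CPM and 118 against 52.97. Together the list took 22.3% of nuclear UMIs in NC high-mt cells and 3.01% in remaining cells, and 18.3% and 2.44% on WD.

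Cytosolic ribosomal proteins made the reverse picture. They summed to 12.0% of nuclear UMIs in NC high-mt cells and 30.9% in remaining cells, and to 12.9% and 30.8% on WD. Of 77 genes compared, 52 were 1 or more lower in both libraries and 0 higher, with medians -1.997 and -1.94 relative to all genes. *Rpl39* was at 1266 against 7739 CPM on NC and at 1412 against 7190 on WD, log2 ratios of -2.61 and -2.35. *Rps28*, *Rpl36a* and *Rps13* had ratios between -2.22 and -2.41 in both libraries. A few did not follow: *Rps15* was at 1661 against 731 CPM on NC (log2 ratio 1.18) and at 1849 against 984 on WD (0.91), and *Rpl13a* had log2 ratios of 0.61 and 0.60.

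The nuclear-encoded subunits of the respiratory chain and ATP synthase were lower in the high-mt cells. Of 77 genes, 56 were 1 or more lower in both libraries and 0 higher, with medians -2.41 and -2.18 relative to all genes. The list summed to 0.905% of nuclear UMIs in NC high-mt cells and 2.86% in remaining cells, and to 0.953% and 2.89% on WD. *Cox5a* of complex IV was at 48.0 against 615 CPM on NC and 98.3 against 597 on WD, log2 ratios of -3.68 and -2.60. *Cox4i1*, another complex IV subunit, was at 583 against 621 CPM and 478 against 659, and *Atp5a1*, the alpha subunit of ATP synthase, at 292 against 273 and 330 against 322. *Ndufa10* of complex I also had log2 ratios near 0 (0.14 and -0.06).

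Genes that transcribe, process and protect mitochondrial RNA did not move as 1 group. Of 13 compared, 5 were 1 or more higher in both libraries and 2 lower, with medians -0.10 and -0.05 relative to all genes. Of these, 3 of the 5 and 1 of the 2 passed the filter only through the cells in which they were higher. The higher ones were *Polg*, the mitochondrial DNA polymerase (41.2 against 12.5 CPM on NC, 51.1 against 11.2 on WD), *Supv3l1*, an RNA helicase of the organelle (24.0 against 7.54 and 47.2 against 8.93), *Tbrg4* (61.8 against 18.2 and 76.7 against 23.6), *Elac2*, which cleaves tRNA precursors (41.2 against 11.7 and 33.4 against 13.3), and *Lrpprc*, which stabilises mitochondrial mRNA (44.6 against 21.6 and 51.1 against 21.4). *Slirp*, the binding partner of *Lrpprc*, was lower with only 3 and 10 UMIs (10.3 against 72.2 CPM and 19.7 against 72.5), and so was *Hsd17b10*. *Tfam*, which packages mitochondrial DNA and starts its transcription, was at 24.0 against 38.6 CPM and 21.6 against 46.4. Of 7 genes for mitochondrial chaperones and mitophagy, *Lonp1* (a matrix protease) and *Sqstm1* (an autophagy receptor) were higher and *Hspe1* (a matrix chaperonin) lower. At equal depth 0 of 12 and 0 of 7 genes of these lists met the threshold in either direction. Over all genes 2.95% were higher and 2.30% lower there, so counts of 0 in lists this short do not set them apart.

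T cell genes were modestly lower relative to all genes. Of the 15, 3 were 1 or more lower in both libraries (*Cd3g*, *Cd3d* and *Trbc2*) and 0 higher, with medians -0.95 on NC and -1.08 on WD relative to all genes. *Cd3g* was at 734 against 1772 CPM on NC and at 523 against 1482 on WD, log2 ratios of -1.27 (interval -1.47 to -1.08) and -1.502 (interval -1.68 to -1.33). *Cd8a*, in contrast, stood at 669 against 606 CPM and 655 against 535 (log2 ratios 0.14 and 0.29), while *Cd8b1* was at 419 against 766 and 382 against 697 (-0.87 in both). The signalling genes *Cd5* and *Zap70* lay at 0.94 and 0.65 on NC and 0.83 and 0.65 on WD. At equal depth 0 of the 15 met the threshold, where 2.95% of all genes were higher and 2.30% lower. The list medians there were -0.33 on NC and -0.84 on WD relative to all genes.

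Of 14 cytotoxic genes, 7 were 1 or more lower in both libraries and 0 higher, with medians -2.10 and -1.81 relative to all genes. Of the 7, 1 passed the filter only through the remaining cells. At equal depth 2 of 11 were lower, *Ccl5* and *Gzma*, against 2.30% of all genes. There *Gzma* was at 0 CPM on NC and 7.77 on WD in high-mt cells, so only the remaining cells brought it into the comparison. The chemokine *Ccl5* was at 961 against 4755 CPM on NC and at 1038 against 4667 on WD, log2 ratios of -2.31 (interval -2.48 to -2.14) and -2.17 (interval -2.29 to -2.04). *Nkg7*, of cytotoxic granules, was at 590.1 against 2086 and 460.2 against 1569 CPM, and *Ccl4* at 552 against 1776 and 283 against 1063. *Gzmb*, which encodes the granule protease granzyme B, was at 429 against 1522 CPM on NC and 336 against 672 on WD (-1.83 and -0.999, the latter just short of the threshold). *Prf1*, the pore former perforin, was at 323 against 486 CPM on NC (-0.59) and 212 against 198 on WD (0.10). *Gzma* was seen in 1 and 3 UMIs only, with log2 ratios of -4.74 (interval -10.04 to -2.26) and -3.45 (interval -5.73 to -1.90).

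The other T cell lists were mixed. Of 7 checkpoint receptor genes, *Lag3* was higher in both libraries (624 against 283 CPM on NC, 458 against 157 on WD) and *Cd160* lower, and *Pdcd1*, which encodes PD-1, was at 202 against 219.5 CPM and 136 against 168. At equal depth 0 of 8 met the threshold, where 2.95% of all genes were higher and 2.30% lower. Of 9 genes of naive and memory cells, *Klf2* was lower (223 against 455 CPM and 236 against 501) and 8 met neither threshold. Of 24 proliferation genes, *Mki67* was higher (432 against 122 CPM on NC, 757 against 168 on WD) and 4 were lower, *Stmn1* the most abundant of them (127 against 462 and 177 against 576), with list medians -1.04 and -0.91 relative to all genes. Of 8 type I interferon genes, 2 were lower, *Isg20* and *Bst2*, and 0 higher, with list medians -1.91 and -1.33 relative to all genes. Of these 2, 1 passed the filter only through the remaining cells, where it was higher.

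Stress and death genes were called higher about as often as all genes or less. Of 20 immediate early and heat shock genes, 6 were 1 or more higher in both libraries and 0 lower: *Fosb*, *Jun*, *Egr1*, *Egr2*, *Btg2* and *Dusp1*. These are 30% of the list, near the 28.3% of all genes. Of the 6, 1 passed the filter only through the high-mt cells, where it was higher. At equal depth 1 of 20, *Egr2*, was higher past the threshold, against 2.95% of all genes. There *Egr2* was under 20 CPM in the remaining cells of both libraries, so only the high-mt cells brought it into the comparison. *Fosb* was at 823 against 206 CPM on NC and 1058 against 283 on WD, log2 ratios of 2.001 and 1.91, and *Jun* at 1002 against 381 and 1316 against 458. *Fos* itself, the partner of *Jun*, was at 446 against 296 CPM on NC and at 435 against 447 on WD, and the list medians were 0.17 and -0.14 relative to all genes. Of 14 apoptosis and p53 target genes, *Bcl2l11* (312 against 68.3 CPM and 281 against 62.5), *Mdm2* (144 against 40.1 and 114 against 40.7) and *Pmaip1* (72.1 against 29.4 and 138 against 31.0) were higher, and *Bax* was lower (72.1 against 266 and 96.4 against 263). The 3 higher genes are 21.4% of that list. At equal depth 0 of the 14 met the threshold, where 2.95% of all genes were higher and 2.30% lower. Of 15 glycolysis genes, *Pfkp* was higher and *Gapdh*, *Aldoa* and *Pgam1* lower, *Gapdh* with 847 against 2544 CPM and 875 against 2371. At equal depth 0 of 14 glycolysis genes met the threshold, against the same shares of all genes.

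The ratio ran with gene length over all genes, and the ratios of the lists were not adjusted for it. With the 5916 genes split into deciles of summed exon length, the median log2 ratio went from -1.28 on NC and -1.19 on WD in the shortest decile (168 to 1679 bases) to 1.49 and 1.504 in the longest (10801 bases and more). In the shortest decile 49.8% of genes were 1 or more lower in both libraries and 6.40% higher, and in the longest 0.508% were lower and 68.5% higher. The cytotoxic genes compared had a median length of 962 bases, and 50% of them were lower, near the share of the shortest decile. Ribosomal protein and respiratory chain genes had medians of 1781 and 1718 bases, within the second decile (1684 to 2490 bases). Of these, 67.5% and 72.7% were lower, against 27.6% of all genes in that decile. Spearman's rho of ratio and length across genes was 0.59 on NC and 0.58 on WD. The gap was present at all expression levels: among the lowest-expressed genes the longer ones, split at 4700 bases, had medians of 1.12 and 1.11 and the shorter ones 0.05 and 0.08, and among the highest-expressed ones 1.07 and 1.03 against -0.75 and -0.70. It was also present without the ribosomal protein and respiratory chain genes (1.10 and 1.08 against -0.18 and -0.17). The 10 highest genes had a median exon length of 9680 bases and the 10 lowest 1221, against 4700 for all. Of the 10 highest, *Rmrp* (281 bases), *Gm42418* (1831), *Ccnb1ip1* (1883) and *Gm26917* (3329) were shorter than that.

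**Figure D3:**
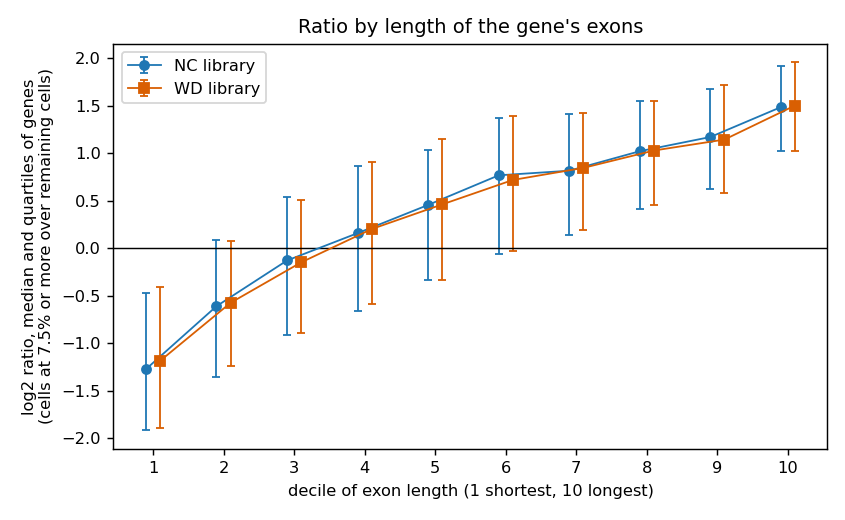
The x axis gives deciles of summed exon length over 5916 nuclear genes and the y axis the log2 ratio of high-mt over remaining cells, with points for the median and bars for the quartiles of the genes in each decile. Both libraries run upward, from -1.28 and -1.19 in the shortest decile to 1.49 and 1.504 in the longest.

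Depth moved with the high-mt cells, so the comparison was repeated at equal depth. Within bins of nuclear UMIs that held at least 20 high-mt and 20 remaining cells, the remaining cells were weighted to carry the UMIs of the high-mt cells, which covered 106 of 158 high-mt cells on NC and 149 of 213 on WD. The depths covered were not the same: the bins held 500 to 3000 nuclear UMIs on NC, while those on WD left out 1000 to 1500 and reached past 3000 with 45 of the 149 cells, so that values of the libraries set side by side cover different ranges. The differences became far fewer. Of 6168 genes compared, 182 (2.95%) were 1 or more higher in both libraries and 142 (2.30%) 1 or more lower. Of the 1673 higher genes, 109 met the threshold again, 935 kept their sign in both libraries and 94 had the opposite sign in both. Of the 767 lower genes, 80 met it again, 523 kept their sign and 10 were opposite. Spearman's rho with length was 0.18 on NC and 0.33 on WD.

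**Figure D4:**
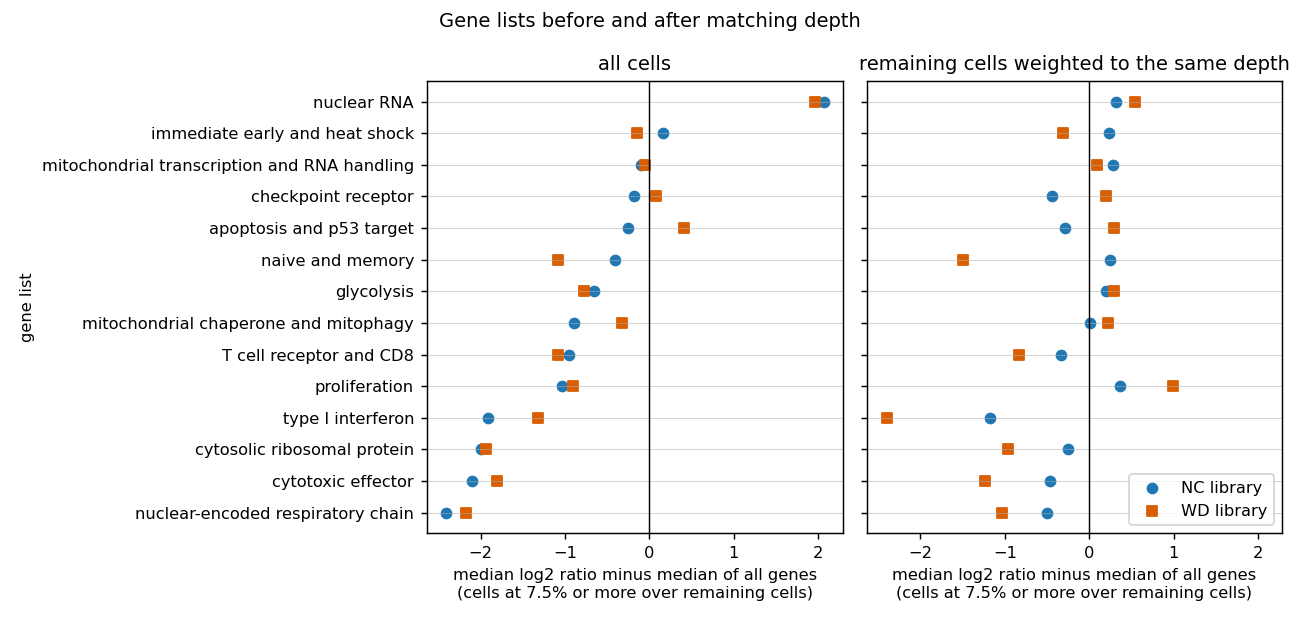
Each row is a gene list and the x axis gives its median log2 ratio, high-mt over remaining cells, minus the median of all genes, for the NC and WD libraries, with all cells on the left and with remaining cells weighted to the depth of the high-mt cells on the right. At equal depth 7 of 14 lists lie nearer to 0 in both libraries, type I interferon genes stay low, and 4 lists change from below to above 0 in both (proliferation, mitochondrial transcription and RNA handling, mitochondrial chaperone and mitophagy, and glycolysis).

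The libraries differed in what the shallow remaining cells were. Among cells with 500 to 2000 nuclear UMIs on NC, the nuclear RNA list took a median of 23.0% of nuclear UMIs in 85 high-mt cells and 18.7% in 132 remaining cells, and ribosomal proteins took 6.04% and 8.03%. On WD the nuclear RNA list took 23.6% in 64 high-mt cells and 2.53% in 116 remaining cells, and ribosomal proteins 7.67% and 18.1%. Between 2000 and 5000 nuclear UMIs the libraries were alike: the nuclear RNA list took 17.3% in 40 NC high-mt cells and 6.82% in 462 remaining cells, and 18.5% in 89 and 6.88% in 322 on WD. Ribosomal proteins took 10.9% and 23.7% there on NC and 10.2% and 23.5% on WD. High-mt cells thus held less ribosomal protein RNA and a greater share of this list than remaining cells in both depth ranges, by a small margin in the shallow NC cells, and the ranges of single cells overlapped. The difference lay mostly in the RNAs of chromosome 17, which took 13.6% and 2.93% on NC and 13.9% and 1.91% on WD between 2000 and 5000 UMIs. *Malat1* took 3.61% and 3.49% there on NC, and on WD it was lower in high-mt cells, with 3.08% and 4.25%.

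**Figure D5:**
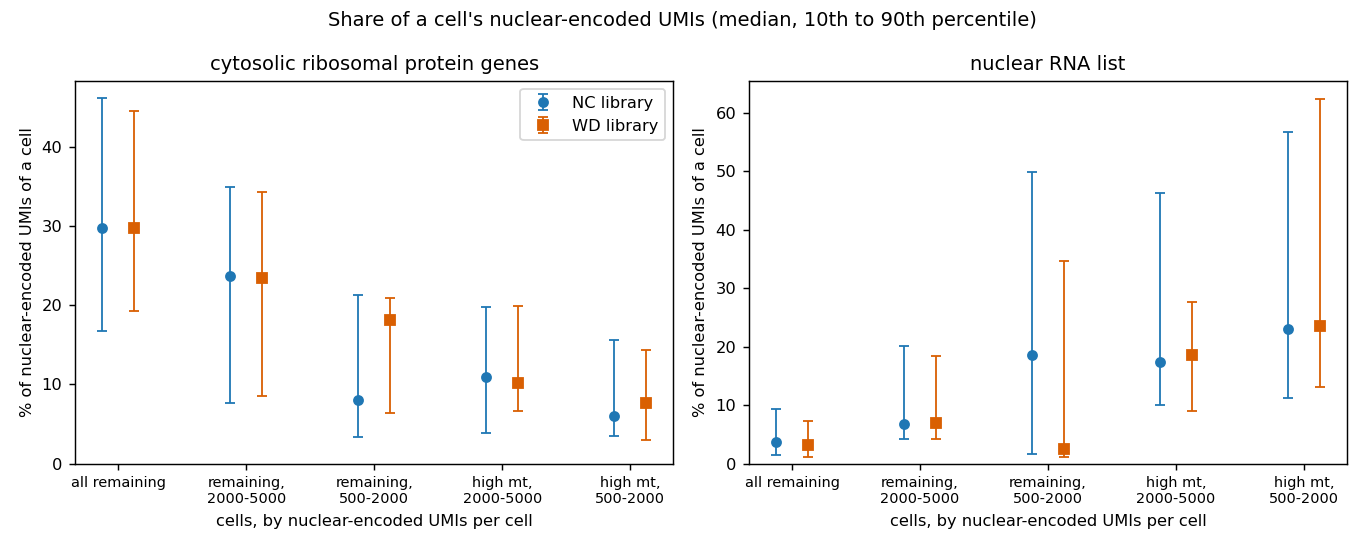
Points give the median over cells, and bars the 10th to 90th percentile, of the percent of a cell's nuclear-encoded UMIs from cytosolic ribosomal protein genes (left) and from the nuclear RNA list (right), for all remaining cells and for remaining and high-mt cells of 2000 to 5000 and of 500 to 2000 nuclear UMIs. Shallow remaining cells on NC lie near the high-mt cells in both measures and those on WD do not.

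At equal depth the nuclear RNA list had medians 0.32 and 0.54 above all genes, with 0 of 6 past the threshold in both libraries. *Gm26917* had log2 ratios of 0.99 and 1.92, *Gm42418* 0.40 and 1.08, *Malat1* 0.14 and -0.42, and *Neat1* -0.24 and 0.23. Ribosomal proteins lay at -0.26 and -0.96 relative to all genes with 1 of 77 lower (*Rps13*), and respiratory chain genes at -0.50 and -1.03 with 7 of 77 lower, among them *Cox5a* (26.5 against 129 CPM on NC, 95.8 against 218 on WD), *Cox6c* and *Ndufa6*. Of the 10 highest genes without weighting, 4 were 1 or more higher in both libraries here too: *Ttn*, *Sema6d*, *Dscam* and *Atp2b2*. The others were not, with log2 ratios of -0.06 and 1.74 for *Rmrp*, 0.69 and 1.29 for *Lars2*, 0.70 and 1.87 for *Ccnb1ip1* and 0.43 and 1.01 for *Kmt2d*. All 10 were picked as the highest in high-mt cells that include those used here, so the 4 give no separate support. Without weighting the 4 were under 20 CPM in the remaining cells of both libraries. In all high-mt cells *Ttn*, *Sema6d*, *Dscam* and *Atp2b2* had 77, 42, 45 and 28 UMIs on NC and 96, 61, 80 and 61 on WD. *Dscam* was at 159 against 44.0 CPM on NC and 181 against 22.5 on WD, and *Atp2b2* at 126 against 36.0 and 132 against 19.7.

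Among T cell genes, *Ccl5*, *Klf2* and type I interferon genes were lower at equal depth, and most listed T cell genes met no threshold. *Ccl5* was at 1009 against 4549 CPM on NC and 777 against 9878 on WD (log2 ratios -2.17 and -3.67). *Klf2*, a transcription factor of resting T cells, was at 312 against 715 CPM and 246 against 984. Of 10 type I interferon genes, 5 were 1 or more lower in both libraries (*Isg15*, *Isg20*, *Ifit1*, *Ifit3* and *Xaf1*) and 0 higher, with list medians -1.18 and -2.40 relative to all genes. *Isg15* was at 13.3 against 56.7 CPM on NC and 15.5 against 144 on WD. These 5 genes had few UMIs in high-mt cells, from 1 (*Ifit1*) to 5 (*Xaf1*) on NC and from 2 to 12 on WD. Of them, *Isg15*, *Isg20* and *Ifit1* were under 20 CPM in the high-mt cells of both libraries. Only the remaining cells, where they were higher, brought them into the comparison. *Cd8a* was at 690.3 against 765 CPM on NC and 684 against 521 on WD, on different sides of 0. *Gzmb* was at 378 against 528 CPM and 275 against 412.

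Some proliferation genes were higher at equal depth. Of 20 proliferation genes, 4 were 1 or more higher at equal depth (*Mki67*, *Top2a*, *Cenpf* and *Birc5*) and 0 lower, and the list medians were 0.36 and 0.997 above all genes, opposite in sign to those without weighting. *Birc5* was at 14.0 CPM on NC and 19.8 on WD in the remaining cells and entered only through its level in high-mt cells. On NC, *Birc5* had 5 UMIs in high-mt cells and *Cenpf* had 6. *Mki67* was at 246 against 103 CPM on NC and 728 against 108 on WD. *Top2a*, which untangles DNA, was at 259 against 73.3 and 588 against 85.8. The linker histone genes *Hist1h1b*, *Hist1h1d* and *Hist1h1e* had log2 ratios of 2.45, 1.63 and 1.21 on NC and of 2.77, 2.30 and 1.84 on WD, and were picked as being among the highest at equal depth. *Hist1h1b* was at 392 against 71.7 CPM and 723 against 106. Shallow remaining cells held few such transcripts, with the proliferation list at 0.197% of nuclear UMIs on NC and 0.384% on WD between 500 and 2000 UMIs, against 0.507% and 0.666% in all remaining cells, and high-mt cells in that range held 0.209% and 0.293%, less than the remaining cells on WD. High-mt cells with 3000 or more nuclear UMIs held 0.534% and 0.782%.

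High-mt cells were spread over a wide range of mitochondrial share. By mitochondrial share, 56 NC cells lay between 7.5% and 10%, 62 between 10% and 20%, 32 between 20% and 50% and 8 at 50% or more, and the WD counts were 55, 82, 52 and 24. Median nuclear UMIs over these bands were 2471.5, 1396.5, 534.5 and 171.5 on NC and 3571, 2442, 679 and 204 on WD, while median mitochondrial UMIs were 223, 227, 234 and 398.5, and 330, 376, 356 and 537. The share and nuclear depth had Spearman's rho of -0.69 over 158 NC cells and -0.70 over 213 WD cells, which the definition of the share favours, since depth is part of its denominator. Ribosomal proteins took 14.0%, 9.73%, 8.28% and 12.1% of nuclear UMIs over the 4 bands on NC and 15.5%, 10.9%, 10.0% and 13.8% on WD, with no steady order. The nuclear RNA list took 18.1%, 27.0%, 29.8% and 27.1% on NC, and 13.8%, 19.8%, 29.1% and 22.05% on WD. T cell genes took 0.663%, 0.547%, 0.305% and 0.429% on NC and 0.597%, 0.519%, 0.534% and 0.787% on WD. The band at 50% or more rests on 1630 nuclear UMIs on NC and 5588 on WD.

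Most single high-mt cells showed the 2 main features when set against remaining cells of all depths. The share of ribosomal protein UMIs lay under the 10th percentile of the remaining cells in 139 of 158 NC cells (88.0%) and 192 of 213 WD cells (90.1%), and the nuclear RNA share lay over their 90th percentile in 139 (88.0%) and 191 (89.7%). In 4 NC and 3 WD cells the ribosomal protein share was above the median of the remaining cells. Many shallow remaining cells passed these cuts as well. The ribosomal protein cuts were 16.8% on NC and 19.3% on WD, and the nuclear RNA cuts 9.33% and 7.32%. Remaining NC cells of 500 to 2000 nuclear UMIs had an upper quartile of 16.2% and a lower quartile of 10.7% for these shares. On WD such cells had medians of 18.1% and 2.53%, past the first cut only. The 2 shares were inversely related over high-mt cells (Spearman's rho of -0.68 and -0.61), as shares of 1 total tend to be. The mitochondrial share itself had a rho of -0.04 and -0.13 with the ribosomal protein share and of 0.18 and 0.30 with the nuclear RNA share. At the higher depth of 3000 or more nuclear UMIs, 27 NC and 56 WD high-mt cells had median ribosomal protein shares of 13.01% and 12.1% and median nuclear RNA shares of 12.7% and 13.5%.

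Between diets, the count of genes that differed in high-mt cells depended on the weighting. Of 2413 nuclear genes compared, 13 (0.539%) had a log2 ratio of WD over NC of 1 or more and 19 (0.787%) one of -1 or less, with a median of 0.02 over all genes. With each cell counted alike, 62 were higher and 98 lower, and with a filter of 100 CPM 13 and 3. The minimum of 20 UMIs in high-mt cells is 68.6 CPM on NC and 39.3 on WD. A gene past the threshold on WD thus had a mean above 100 CPM in any case. That filter could remove lower genes only, so the unchanged 13 is no sign of stability. Only genes with at least 20 UMIs in the high-mt cells of each library entered. Among those with a mean of at least 50 CPM, the highest were the kinetochore motor gene *Cenpe* (210.5 CPM on WD, 78.9 on NC, log2 ratio 1.42, interval 0.76 to 2.13), *Rangap1* of nuclear transport (230.1 and 92.6, 1.31), the inhibitory receptor gene *Lilrb4a* (167 and 68.6, 1.28), *Rmrp* (458 and 192, 1.25) and *Pclaf*, a partner of the replication clamp (167 and 72.1, 1.21). In remaining cells these 5 had log2 ratios of 0.46, 0.45, 0.10, -0.11 and 0.34. The single NC cell with most *Cenpe* held 34.8% of its 23 UMIs. Of 12 proliferation genes compared, 0 passed the threshold, and their median was 0.52, against 0.41 in remaining cells.

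The lowest of WD over NC were *Chpt1* (41.3 CPM on WD, 257 on NC, log2 ratio -2.64, interval -3.41 to -1.93), *Churc1* (43.3 and 141, -1.70), *Gzmf* (39.3 and 127, -1.69), *Klrd1* (132 and 398, -1.59) and *Jaml* (43.3 and 130.4, -1.59). One cell carried much of several of these on NC: 44.0% of *Chpt1*, 65.9% of *Churc1* and 59.5% of *Gzmf* UMIs. *Klrd1*, which encodes the NK receptor chain CD94, was spread over 41 NC and 42 WD cells, with 21.6% in 1 NC cell, and was at -0.77 in remaining cells. The effector genes *Gzmb* and *Prf1*, at -1.18 and -1.29 in remaining cells, were at -0.35 (interval -0.69 to -0.01) and -0.60 (interval -1.01 to -0.19) in high-mt cells. Whether these gaps between cell groups exceed the spread between mice cannot be tested with 1 library per diet. Of the nuclear RNAs, *Gm26917* was higher on WD in high-mt cells (0.80) than in remaining cells (0.11), while *Gm42418* was lower on WD in both (-0.47 and -0.54).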

How the data were processed

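Raw UMI counts per gene and cell were deposited for both libraries, made by the authors with Cell Ranger 6.0.2 on mm10 per the submitters' processing notes. The annotation release behind the counts is not given in the sources used here. The study's methods keep cells under 7.5% mitochondrial UMIs with over 500 and under 50000 UMIs; the deposited tables hold 5320 cells, of which 4949 lie under the mitochondrial limit and 4745 within all limits. The number analysed in the study equals the deposited number, so the high-mt cells cannot be taken as cells it excluded. No cell was removed here. Members and gene lists were chosen with earlier results of these data known.

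Counts were summed over cells per library and group and scaled to CPM of nuclear-encoded UMIs. Genes with a mean of at least 20 CPM over the 4 groups were compared, and a log2 ratio of at least 1, or at most -1, in both libraries was the threshold (0.1 for shares among mitochondrial genes). Named by rule were the mitochondrial genes, the listed genes, the 10 highest and 10 lowest mean ratios among genes with at least 20 UMIs in each group, and the 5 highest and 5 lowest ratios between diets at 50 CPM or more. The comparison between diets took genes with at least 20 UMIs in the high-mt cells of each library. Intervals are exact binomial or conditional binomial at 95%, and a count of 0 was given a limit of 3 counts. Gene lengths, positions and sequences came from GENCODE M21 (GRCm38). Python 3.11.15, numpy 2.4.6, scipy 1.17.1, pandas 2.3.3 and matplotlib 3.10.9 were used. The log2 ratios and their intervals were tested on simulated summed counts without variation between cells. The other steps were not tested in this way. Alternatives covered the limit, depth, weighting, thinning, filters and the denominator.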

Additional observations from a re-analysis of the deposited data

How the results depend on the processing

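No paired analysis was possible because each diet has 1 library, and no library could be left out. The low depth of the high-mt cells limits single genes most. Unless stated, values are the mean of both libraries, and list values are medians relative to all genes. As reported, 1673 genes were higher and 767 lower, and the lists stood at -1.01 (T cell), -1.96 (cytotoxic), 2.02 (nuclear RNA), -1.97 (ribosomal protein) and -2.30 (respiratory chain).

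Weighting the remaining cells to the depth of the high-mt cells had the greatest effect. The counts became 182 and 142, and the lists -0.58, -0.85, 0.43, -0.61 and -0.76 in the same order. Proliferation turned from -0.98 to 0.68, mitochondrial transcription and RNA handling from -0.08 to 0.18, mitochondrial chaperones and mitophagy from -0.61 to 0.11 and glycolysis from -0.72 to 0.24. The bins' minimum of 20 cells of each kind was chosen after seeing the data. With each cell weighted alike, 1106 genes were higher, the lists stood at -0.91, -1.63, 1.46, -2.01 and -1.83, 3 mitochondrial genes in place of 5 had greater shares (2 of them among the 5), and 62 and 98 genes were higher and lower on WD in place of 13 and 19. With each cell thinned to 500 nuclear UMIs, 1113 genes were higher and the lists stood at -0.85, -1.60, 1.52, -2.06 and -2.07. The cause of these shifts was not tested.

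With a filter of 50 CPM, 813 of 3024 genes were higher, and the T cell, nuclear RNA and ribosomal protein lists stood at -0.83, 2.20 and -1.78. Without the filter, 3089 of 10153 were higher, so that the share of higher genes, 1673 of 5916 as reported, moved little. The share of lower genes moved more. It was 574 of 3024 with the filter of 50 CPM, 767 of 5916 as reported and 874 of 10153 without the filter. With a limit of 10%, the nuclear RNA and ribosomal protein lists stood at 2.20 and -2.23, and 6 and 12 genes were higher and lower on WD, of 915 compared in place of 2413. A filter of 100 CPM, chosen after seeing the data, left 3 genes lower on WD and could not remove any of the higher ones. Without cells of 50000 or more UMIs the nuclear RNA list stood at 1.79. With all UMIs in place of nuclear UMIs as the denominator, 1238 of 5573 genes were higher and 915 lower. Without high-mt cells of 20% or more, mitochondrial transcription and RNA handling stood at 0.018.

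The share of high-mt cells was 3.78% on NC and 6.02% on WD with a limit of 10%, 9.27% and 11.9% with 5%, and 4.202% and 6.47% without cells under 1000 UMIs. The share of high-mt cells with a T cell UMI was 64.5% and 72.4% when thinned to 250 UMIs and 96.8% and 97.3% when thinned to 1000.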

Other observations

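Past the threshold in opposite directions in the libraries were 4 genes, all from few UMIs in high-mt cells. *Enpp2* had 8 UMIs on NC and 7 on WD, with log2 ratios of 1.22 and -1.29. *Ak3* had 12 and 4 UMIs (1.23 and -1.04), *Cad* 17 and 6 (1.55 and -1.02) and *H1fx* 1 and 33 (-1.47 and 1.76).

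The inducible heat shock genes *Hspa1a* and *Hspa1b* rested on a few high-mt cells. *Hspa1a* had 20 UMIs in 5 NC cells, 55.0% of them in 1 cell, and 8 UMIs in 4 WD cells, 62.5% in 1 cell, with log2 ratios over the remaining cells of 2.76 and -0.48. *Hspa1b* had 15 UMIs on NC (66.7% in 1 cell) and 13 on WD (84.6% in 1 cell), with log2 ratios of 2.87 and 0.07.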
